A study of Homo sapiens with 6 samples.

Results

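The genes described here are 37 genes of homologous recombination, the Fanconi anaemia pathway and the DNA damage checkpoint, found by symbol among the 38557 gene symbols of the deposited tables. All 37 symbols were listed. By role they comprised 19 recombination genes, 10 Fanconi genes and 8 checkpoint genes. Poly(A) RNA was sequenced from T-24 cells, an established human line of epithelial bladder cancer cells. Of 6 samples, 3 were treated for 48 h with 1 µM CCT068127 and 3 with the vehicle DMSO, and the labels give the DMSO cells as wild type and describe 3 independent biological replicates per arm. CCT068127 blocks the kinases CDK2 and CDK9. CDK2 is a kinase of DNA replication, and CDK9 releases paused RNA polymerase II into elongation. The comparison asks how the transcripts of this repair network differed between treated and vehicle cells in a single cell line at a single dose and time.

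Homologous recombination repairs a broken chromosome by copying an intact sister. A nuclease complex resects the broken ends, mediators such as BRCA2 load a recombinase onto the single strand, and motor proteins and helicases carry the exchange to completion. The Fanconi pathway acts where the strands are crosslinked: a core complex attaches ubiquitin to FANCD2 and FANCI, and the marked pair directs incision and repair. ATM responds to broken ends and ATR, with its partner ATRIP, to exposed single strands at stalled forks, and they signal through the kinases CHEK2 and CHEK1. Many of these genes are transcribed most in S phase, when a sister is at hand.

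The depth behind the values was uneven. DMSO replicates 1 and 2 held 371044040 and 411097626 counts and DMSO replicate 3 held 5955296, while replicates 1, 2 and 3 of CCT068127 held 5557546, 1966742 and 4657316. The 37 genes had a median count of 6668, 5828 and 89 with DMSO and of 115, 45 and 103 with CCT068127, so counting error in the 4 shallow libraries limits the precision. Filtering on low counts kept 37 of 37. Of these, 34 reached the minimum in each library, FANCB passed through the CCT068127 libraries alone, and ATRIP and BRCA2 through the DMSO libraries alone, so a difference of FANCB and ATRIP was built into their passing. In TPM (transcript abundance scaled by length and depth), the epithelial list of EPCAM, CDH1 and 4 keratins summed to 3680 to 4870 in DMSO and 5280 to 6730 in CCT068127. KRT8 went from a mean of 853 to 2100 TPM, KRT7 from 1850 to 2410, KRT19 from 225 to 326 and KRT18 from 1150 to 1100, and EPCAM from 5.05 to 3.20. CDH1, the epithelial cadherin, and the uroplakin genes UPK1A, UPK1B, UPK2 and UPK3A, which mark differentiated urothelium, stood between 0 and 1.83 TPM. With GATA3, a urothelial factor at 78.1 to 99.6 TPM in DMSO and 12.1 to 16.1 in CCT068127, the urothelial list summed to 79.2 to 102 TPM and 13.7 to 18.9. The mesenchymal list of VIM, CDH2 and FN1 summed to 1880 to 2110 TPM in DMSO and 1490 to 1700 in CCT068127. The leukocyte list of PTPRC, CD3E and CD68 summed to 5.09 to 9.31 TPM in DMSO and 40.6 to 43.7 in CCT068127, nearly all of it CD68. PTPRC and CD3E, the defining leukocyte genes, stayed at or below 0.52 TPM. Summed endothelial markers lay between 2.26 and 5.67 TPM in both groups, and summed fibroblast markers at 11.2 to 14.8 TPM in DMSO and 1.84 to 2.6 in CCT068127, with COL1A2 at 0 in each library. The part of these lists in the results was not tested. In bulk RNA, a change in the share of cells in S phase and a change of RNA per cell cannot be told apart.

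Most of the network was higher in treated cells by counts scaled with TMM factors. A small set that included a sensor kinase and break-binding subunits was lower. Of the 37 genes, 25 rose and 5 fell, and 7 did not pass (edgeR, adjusted p under 0.05 over all 13597 genes tested). These counts include FANCB and ATRIP, each of which passed the low-count filter through the group where it was high. Among all genes tested, 31.9% rose and 32.8% fell, 64.7% in all. The median log2 fold change was 0.84 over the 37 genes and -0.05 over all genes tested. At least 2-fold higher were 15 genes, against 15.5% of all genes, and at least 2-fold lower were 4, against 12.9%. In CPM (counts scaled to a common library size, with TMM factors) the CCT068127 libraries lay wholly above the DMSO libraries for 26 genes, against 33.3% of all genes, and wholly below for 5, against 36%.

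The zero line depends on the scaling. With library totals in place of TMM the median of all genes was -0.36, and 18 of the 37 rose and 8 fell, with a median of 0.53. In that setting 3006 of the 13597 genes tested rose and 6567 fell. On log2(TPM + 1) values the median of all genes was -0.46, and 16 of 36 tested rose and 8 fell, with a median of 0.26. These values divide by transcript length and also carry no TMM factor. On that scale 17.2% of all genes rose and 51.9% fell. The 5 genes that fell did so under each alternative that gave a test. PALB2, RAD51C and MRE11, which rose by counts, turned to -0.03, -0.09 and -0.06 on log2(TPM + 1) values, with no call. BRCA1, PALB2, RAD51AP1, MRE11, RBBP8, CHEK2 and TOPBP1 lost their calls both with library totals and on TPM values, and without the low-count filter the same genes apart from RAD51AP1 lost theirs. RAD51D, FANCL and ATR, which did not pass, were called lower with library totals and on TPM values.

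The 3 roles are set side by side in the plot of fold changes. Recombination held 14 risers and 2 fallers among 19 genes (median 0.84). The Fanconi set held 6 and 1 among 10 (median 1.00). The checkpoint set held 5 and 2 among 8 (median 0.61). Within the checkpoint genes the 4 kinases had a median of 0.17 and the 4 adaptors 1.05. The 8 Fanconi core complex genes had a median of 0.68, against 1.56 and 1.54 for the complex's substrates FANCD2 and FANCI. These differences between roles were not tested, and the counts and medians include FANCB and ATRIP.

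**Figure D1:**
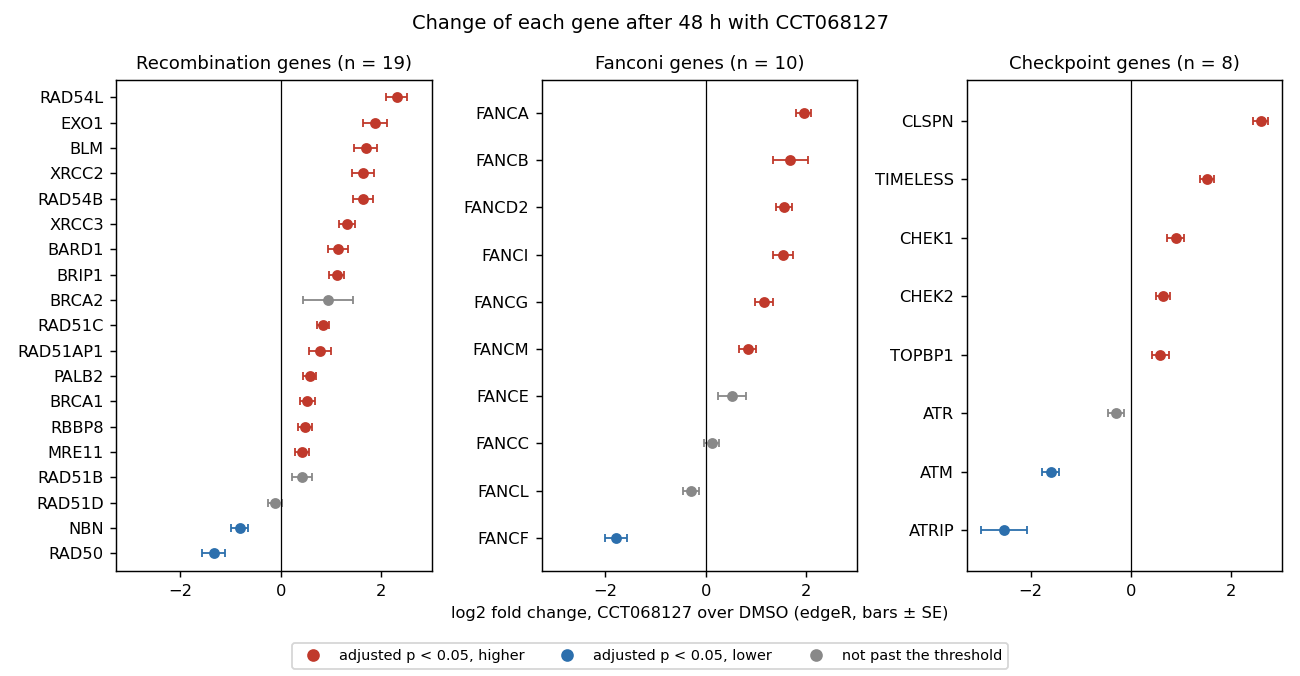
Log2 fold change of each of the 37 genes (x axis, CCT068127 over DMSO, edgeR, bars ± SE), sorted within recombination, Fanconi and checkpoint genes, with colour for the call. RAD54L, FANCA and CLSPN are highest in their groups, and RAD50, FANCF and ATRIP are lowest.

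The promoters were read because so many of the genes moved in 1 direction. RefSeq promoter windows (GRCh38.p14, 250 bases before to 50 after a start) were matched for 34 of the 37 genes, and RAD54B, NBN and FANCI had none in the table. Windows were searched on both strands for the octamers TTTGGCGC, TTTCGCGC, TTTCCCGC and TTTGCCGC, spellings of the site bound by E2F factors, which drive S phase genes. At least 1 match was held by 7 of 34 genes (20.6%), against 3.99% of the 27305 genes in the table. The genes in the table were not limited to those expressed or tested here. Those 7 were CLSPN, EXO1, FANCD2, TOPBP1, XRCC2 and FANCA, which rose, and FANCC, which did not pass. The octamer thus stood in 6 of the 23 matched genes that rose, so most of them lacked it. It stood in 0 of the 4 that fell and in 1 of the 7 that did not pass. Whether it bears on the changes was not tested. The 30 bases around each match are given on the gene's own strand, for the genes that hold one. Capitals mark the octamer, which on 6 of the 8 lines reads as its reverse complement, and positions are counted from an annotated start of transcription.
CLSPN, chr1:35769965-35769994, minus strand, -16 to 14: actctggctggGCGGGAAAgcaagaacagc
TOPBP1, chr3:133661930-133661959, minus strand, -18 to 12: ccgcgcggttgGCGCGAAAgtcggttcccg
FANCD2, chr3:10026424-10026453, plus strand, -13 to 17: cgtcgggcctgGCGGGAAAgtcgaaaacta
EXO1, chr1:241848197-241848226, plus strand, -7 to 23: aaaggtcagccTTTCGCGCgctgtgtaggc
XRCC2, chr7:152676102-152676131, minus strand, 11 to 40: tggcgttggtgGCGGGAAAgttgagtctct
FANCA, chr16:89816801-89816830, minus strand, -183 to -154: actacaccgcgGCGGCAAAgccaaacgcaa
FANCC, chr9:95317863-95317892, minus strand, -183 to -154: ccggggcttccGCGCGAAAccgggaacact
FANCC, chr9:95317737-95317766, minus strand, -57 to -28: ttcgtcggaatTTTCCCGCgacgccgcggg

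A match is a string of letters and not a measured site. In CLSPN, TOPBP1, FANCD2 and EXO1 the octamer began within 7 bases of the start. CCAAT, the box bound by NF-Y, was searched on both strands as well and was held by 17 of 34 genes (50%), against 39.7% of all genes in the table. It stood in 14 of the 23 matched genes that rose, in 3 of the 4 that fell and in none of the 7 that did not pass. CHR (TTTGAA), an element of genes read out in G2 and M, was held by 3 of 34 (8.82%), against 18.2%. The upstream bases of 4 genes follow, with CCAAT or its reverse complement in capitals, since genes that rose and genes that fell both carried the box. For ATRIP they lie before an alternative annotated start, inside the gene's span, which begins at 48446737. The window at that first base held the reverse complement at -26, which is not printed.
CLSPN, chr1:35769979-35770098, minus strand: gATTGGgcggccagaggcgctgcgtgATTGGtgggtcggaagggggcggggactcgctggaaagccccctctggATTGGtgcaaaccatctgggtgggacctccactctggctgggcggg
XRCC3, chr14:103715452-103715671, minus strand: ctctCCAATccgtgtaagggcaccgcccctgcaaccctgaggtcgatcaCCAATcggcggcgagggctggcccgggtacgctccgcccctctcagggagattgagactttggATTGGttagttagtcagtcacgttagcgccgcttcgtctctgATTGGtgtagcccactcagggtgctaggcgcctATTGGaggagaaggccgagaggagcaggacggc
FANCF, chr11:22625824-22625923, minus strand: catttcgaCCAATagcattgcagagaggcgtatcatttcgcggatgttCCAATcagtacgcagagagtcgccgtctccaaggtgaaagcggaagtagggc
ATRIP, chr3:48447056-48447125, plus strand: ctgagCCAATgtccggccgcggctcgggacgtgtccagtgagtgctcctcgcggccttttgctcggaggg

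**Figure D2:**
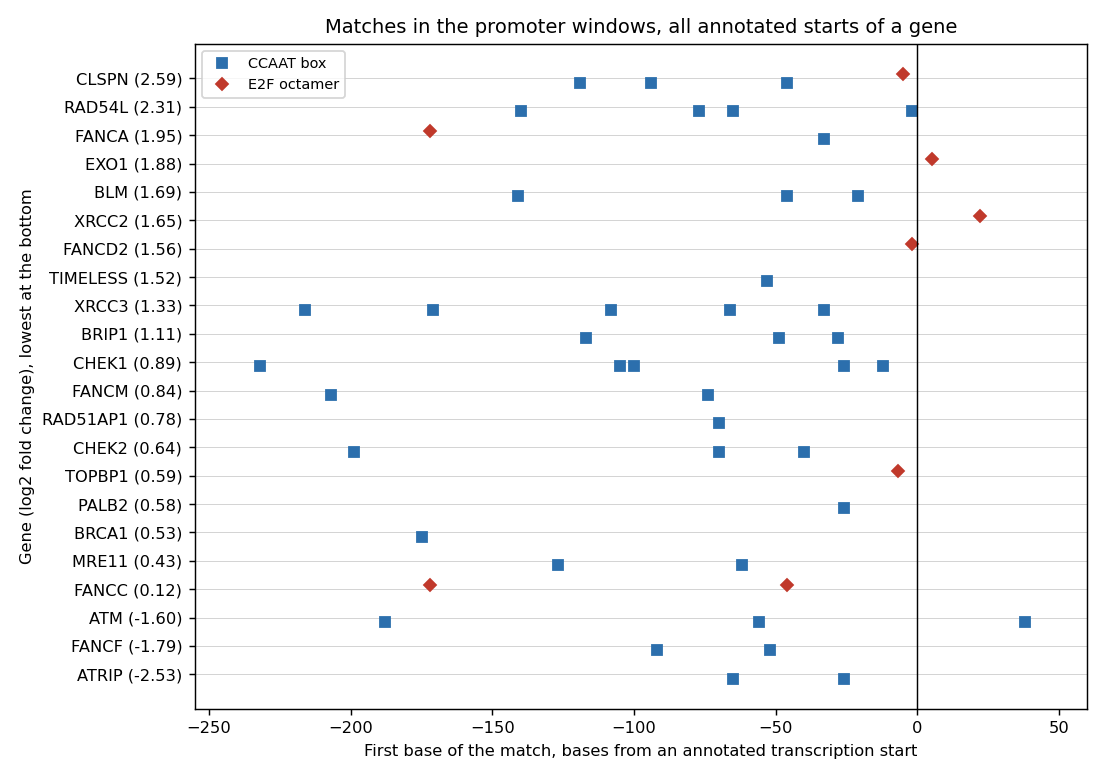
Position of each CCAAT box and E2F octamer (x axis, bases from an annotated start of transcription) in the genes that hold either, ordered by log2 fold change (in brackets). The octamers of CLSPN, FANCD2, TOPBP1 and EXO1 sit at the start, and CCAAT boxes are found in genes at both ends of the order.

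The 3 strand exchange genes rose, RAD54L by the most of the 19 recombination genes. RAD54L (chromosome 1, 46247688 to 46278473, GRCh38), a motor protein that remodels the recombinase filament, stood at 11.6, 7.10 and 7.17 CPM in the DMSO libraries and at 49.5, 38.8 and 43.1 CPM in the CCT068127 libraries. Every treated library lay above every DMSO library. RAD54L rose by a log2 fold change of 2.31 ± 0.21 (SE; adjusted p = 4.96e-06). In the annotation, 25.1% of its exonic bases lie opposite exons of LRRC41, which fell by 0.42 on the log2 scale (adjusted p = 0.0112). Its relative RAD54B (chromosome 8, 94371960 to 94475115) stood at 8.31, 5.83 and 8.66 CPM and at 19.8, 25.7 and 24.4 CPM, and the groups did not overlap. RAD54B rose by 1.64 ± 0.20 (adjusted p = 3.73e-05). It shares 59.1% of its exonic bases on the same strand with FSBP, which had 961 and 1141 counts in DMSO replicates 1 and 2 and 0 in the 4 shallow libraries, so the split of shared reads is uncertain. RAD51AP1, which aids pairing of the invading strand, rose less, by 0.78 ± 0.22 (adjusted p = 0.00956). That call was lost without CCT068127 replicate 3 (adjusted p = 0.0626) and with limma-voom (adjusted p = 0.0638).

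Of the 4 mediators, 3 rose and BRCA2 did not pass. BARD1, the obligate partner of BRCA1, stood at 8.36, 6.36 and 5.53 CPM in vehicle cells and at 14.3, 18.3 and 15.2 CPM in treated cells, and rose by 1.15 ± 0.20 (adjusted p = 0.000465). BRCA1 itself stood at 16.15, 12.92 and 12.99 CPM and at 18.95, 19.42 and 22.72 CPM, with no overlap. BRCA1 rose by 0.53 ± 0.15 (adjusted p = 0.011), a call lost when DMSO replicate 2 was left out (adjusted p = 0.0658) and when CCT068127 replicate 3 was (adjusted p = 0.0767). PALB2, the bridge between BRCA1 and BRCA2, rose by 0.58 ± 0.13 (adjusted p = 0.00251).

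BRCA2, which loads the recombinase, had the widest spread of the mediators. Its counts were 9, 23 and 28 in the CCT068127 libraries, or 1.83, 13.1 and 6.63 CPM, against 3.65, 2.53 and 3.29 CPM in DMSO. CCT068127 replicate 1 lay below every DMSO library and the other two lay above. BRCA2 did not pass (log2 fold change 0.95, approximate 95% interval -0.03 to 1.93, adjusted p = 0.12). Without CCT068127 replicate 1 it passed at 1.51 (adjusted p = 0.00594).

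The 5 paralogs of the recombinase, which stabilise its filament, split. XRCC3 (chromosome 14, 103697617 to 103715451) stood at 27.0, 21.4 and 24.5 CPM in DMSO and at 73.2, 47.4 and 58.0 CPM in CCT068127. The groups did not overlap, and XRCC3 rose by 1.33 ± 0.16 (adjusted p = 3.39e-05). XRCC2 rose by 1.65 ± 0.22 (adjusted p = 7.12e-05) and RAD51C by 0.84 ± 0.13 (adjusted p = 0.000184). RAD51B (0.42, interval 0.03 to 0.82, adjusted p = 0.0862) and RAD51D (-0.11, interval -0.39 to 0.16, adjusted p = 0.718) did not pass. RAD51B passed with limma-voom (adjusted p = 0.0473). In the annotation, 76.7% of the exonic bases of XRCC3 lie opposite exons of KLC1. As strandedness is not stated, the assignment of reads over those bases is uncertain. KLC1 had 127 ± 6.26 CPM in vehicle cells and 128 ± 4.08 CPM in treated ones (SD, n = 3), and did not pass.

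Of the 5 resection genes, 3 rose and 2 fell. EXO1 (chromosome 1, 241847986 to 241889939), the nuclease of long-range resection, stood at 7.40, 4.64 and 3.73 CPM in DMSO and at 20.4, 22.3 and 19.9 CPM in CCT068127. It rose by 1.88 ± 0.24 (adjusted p = 5.34e-05). RBBP8, which encodes the resection factor CtIP, rose by 0.49 ± 0.14 (adjusted p = 0.00856). That call was lost with library totals (0.18, adjusted p = 0.264), without the low-count filter (adjusted p = 0.244) and on log2(TPM + 1) values (0.02, limma adjusted p = 0.924). MRE11, RAD50 and NBN encode 3 subunits of a single complex that binds broken ends. MRE11 rose by 0.43 ± 0.13 (adjusted p = 0.0163), but leaving out any of DMSO replicates 2 and 3 or CCT068127 replicates 2 and 3 ended its call (adjusted p from 0.0514 to 0.0773).

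The other subunits were lower. RAD50 (chromosome 5, 132556977 to 132646349) stood at 111, 123 and 117 CPM in DMSO and at 29.1, 68.0 and 49.5 CPM in CCT068127, and fell by 1.33 on the log2 scale (SE 0.23, adjusted p = 0.00066). CCT068127 replicate 1 was lowest and the groups did not overlap. NBN (chromosome 8, 89933331 to 89984667) stood at 55.0, 60.3 and 65.1 CPM and at 25.3, 44.0 and 36.9 CPM, and fell by 0.81 on the log2 scale (SE 0.17, adjusted p = 0.00167). CCT068127 replicate 1 was again lowest. The annotation gives 79.7% of the exonic bases of RAD50 also to a read-through gene model on the same strand, AC116366.3. That symbol is absent from the deposited data.

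Both helicase genes rose by counts. BLM, which unwinds recombination intermediates, stood at 9.38, 6.51 and 5.82 CPM in DMSO and at 17.7, 31.4 and 26.8 CPM in CCT068127, and rose by 1.69 ± 0.24 (adjusted p = 0.000116). BRIP1, a partner of BRCA1, rose by 1.11 ± 0.15 (adjusted p = 0.000102). On log2(TPM + 1) values BRIP1 stood at 0.46 and lost its call (limma adjusted p = 0.0627).

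**Figure D3:**
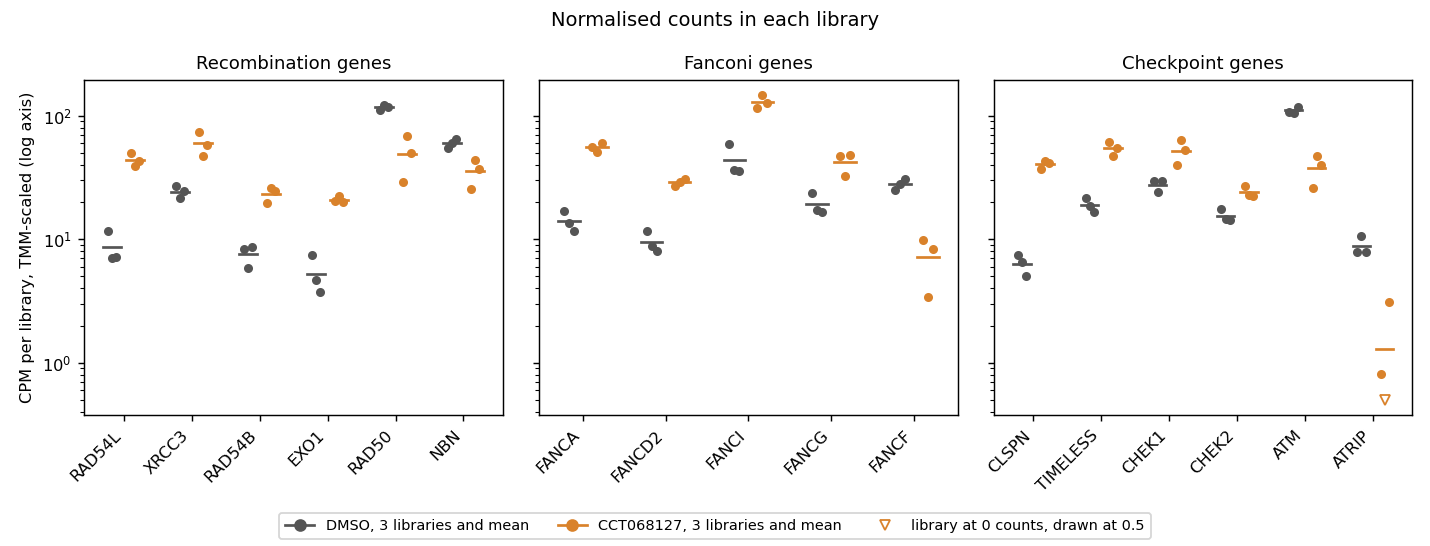
CPM in each library (log axis; points are libraries and bars group means) for the genes with the smallest adjusted p in each role and direction. For each gene drawn, the 3 CCT068127 libraries lie wholly above or wholly below the 3 DMSO libraries, and ATRIP has 0 counts in CCT068127 replicate 2. The genes were picked by adjusted p, which favours such separation. Over all genes tested, 33.3% lay wholly above and 36% wholly below.

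In the Fanconi core complex, FANCA rose and FANCF fell. FANCA (chromosome 16, 89737549 to 89816647), a scaffold of the complex, stood at 16.8, 13.5 and 11.7 CPM in DMSO and at 55.6, 50.3 and 59.9 CPM in CCT068127. All treated libraries lay above all DMSO libraries, and FANCA rose by 1.95 ± 0.15 (adjusted p = 1.1e-06). In the annotation 23.6% of its exonic bases lie opposite exons of ZNF276, which fell by 0.61 on the log2 scale (adjusted p = 0.0293). FANCG (chromosome 9, 35073839 to 35079942), which binds FANCA, stood at 23.5, 17.1 and 16.7 CPM and at 47.3, 32.6 and 47.6 CPM, and rose by 1.16 ± 0.18 (adjusted p = 0.00019).

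FANCF (chromosome 11, 22622533 to 22625823), a small adaptor of the core complex, is a gene of 1 annotated transcript. It stood at 25.1, 27.9 and 30.8 CPM in DMSO and at 9.78, 3.43 and 8.29 CPM in CCT068127, where its counts were 48, 6 and 35. Its exonic bases lie opposite GAS2 exons over 11.3%, and GAS2 had 0 to 3 counts in the shallow libraries. FANCF fell by 1.79 on the log2 scale (SE 0.21, adjusted p = 3.7e-05), and the groups did not overlap. Within the core complex it was the single gene that fell.

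FANCB, FANCM, FANCC, FANCE and FANCL complete the core complex. FANCB, part of the catalytic module, was the lowest of the Fanconi genes, with 4 counts in DMSO replicate 3 and 20, 10 and 23 in CCT068127. It stood at 1.97, 1.35 and 0.597 CPM and at 4.08, 5.71 and 5.44 CPM, and rose by 1.68 ± 0.35 (adjusted p = 0.00163). FANCB passed the low-count filter through the CCT068127 libraries, so its call is not independent of the filter. Set against DMSO replicate 3 alone, its log2 fold change was 2.97. FANCM, the motor that anchors the complex on DNA, rose by 0.84 ± 0.17 (adjusted p = 0.00144). FANCC (0.12, interval -0.19 to 0.42), FANCE (0.52, interval -0.03 to 1.07) and FANCL (-0.29, interval -0.60 to 0.02), the ubiquitin ligase, did not pass. FANCC turned to -0.09 without CCT068127 replicate 1, with no call. FANCE passed without DMSO replicate 1 (0.77, adjusted p = 0.0156). FANCL passed as lower without CCT068127 replicate 3 (-0.46, adjusted p = 0.0489), with library totals (-0.60, adjusted p = 0.00734), without the low-count filter (-0.54, adjusted p = 0.0248) and on log2(TPM + 1) values (-0.78, limma adjusted p = 0.00262). Exons of VRK2, which fell by 0.86 on the log2 scale, lie opposite 19.7% of the FANCL exonic bases.

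The substrates of the complex rose by nearly the same factor. FANCD2 (chromosome 3, 10026437 to 10101932) stood at 11.6, 8.85 and 8.06 CPM in DMSO and at 27.1, 29.1 and 30.8 CPM in CCT068127, and rose by 1.56 ± 0.16 (adjusted p = 1.3e-05). Its partner FANCI (chromosome 15, 89243979 to 89317259) stood at 59.0, 36.0 and 35.8 CPM and at 115, 147 and 126 CPM, and rose by 1.54 ± 0.20 (adjusted p = 9.12e-05). In neither gene did the groups overlap, and in both DMSO replicate 1 was the highest of the DMSO libraries.

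Among the checkpoint genes, CLSPN and TIMELESS rose most. CLSPN (chromosome 1, 35720213 to 35769978), the adaptor through which ATR reaches CHEK1, stood at 7.49, 6.47 and 5.08 CPM in DMSO and at 37.3, 42.8 and 41.2 CPM in CCT068127. The groups lay far apart, and CLSPN rose by 2.59 ± 0.15 (adjusted p = 2.23e-07), the largest rise of the 37 genes. TIMELESS (chromosome 12, 56416363 to 56449426), which holds the replication fork together, stood at 21.6, 18.5 and 16.6 CPM and at 60.7, 47.4 and 54.7 CPM. It rose by 1.52 ± 0.14 (adjusted p = 4.1e-06). TOPBP1, the activator of ATR, rose by 0.59 ± 0.17 (adjusted p = 0.00977), or by 0.36 without CCT068127 replicate 2. TOPBP1 lost its call with library totals (0.27, adjusted p = 0.167), without the low-count filter (adjusted p = 0.0674) and on log2(TPM + 1) values (0.06, limma adjusted p = 0.807).

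By counts the effector kinases CHEK1 and CHEK2 rose, ATM fell and ATR did not pass. CHEK1 (chromosome 11, 125625136 to 125681124) stood at 29.3, 24.0 and 29.4 CPM in DMSO and at 39.9, 63.4 and 52.8 CPM in CCT068127, and rose by 0.89 ± 0.16 (adjusted p = 0.000718). CHEK2 (chromosome 22, 28687742 to 28741834) stood at 17.4, 14.5 and 14.3 CPM and at 26.9, 22.9 and 22.5 CPM, and rose by 0.64 ± 0.14 (adjusted p = 0.00231). Both genes had no overlap between groups. CHEK2 lost its call under library totals, at 0.33 with an adjusted p of 0.0552, without the low-count filter, and on the log2(TPM + 1) scale, at 0.09 with an adjusted p of 0.501.

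ATM (chromosome 11, 108223067 to 108369102), the kinase that answers broken ends, was the sensor kinase that fell. It stood at 107, 105 and 118 CPM in DMSO and at 26.1, 47.4 and 39.5 CPM in CCT068127. The highest treated library was below the lowest DMSO library by a wide margin, and ATM fell by 1.60 on the log2 scale (SE 0.17, adjusted p = 1.73e-05). ATR, the kinase of stalled forks, stood at 21.6, 23.4 and 23.6 CPM and at 14.1, 21.1 and 21.8 CPM, and did not pass (-0.30, interval -0.62 to 0.02, adjusted p = 0.129). ATR passed as lower with library totals (-0.61, adjusted p = 0.00799) and without the low-count filter (-0.54, adjusted p = 0.00954). It also passed as lower on log2(TPM + 1) values (-0.64, limma adjusted p = 0.0139). Over all genes the medians in these settings were -0.36, -0.49 and -0.46.

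ATRIP (chromosome 3, 48446737 to 48467645), which brings ATR to coated single strands, had 4, 0 and 13 counts in the CCT068127 libraries, or 0.815, 0 and 3.08 CPM. In DMSO it stood at 7.80, 10.6 and 7.91 CPM. The groups did not overlap. A count of 0 in CCT068127 replicate 2 allows up to 1.53 CPM (3 counts of the library total, counting error only). That bound leaves out the library's TMM factor of 0.894, which the CPM values carry. ATRIP fell by 2.53 on the log2 scale (SE 0.46, adjusted p = 0.000729), or by 3.91 without CCT068127 replicate 3. ATRIP passed the low-count filter through the DMSO libraries, so its call and the lack of overlap are not independent of the filter. Of its exonic bases, 27.9% are shared on the same strand with TREX1, an exonuclease gene. TREX1 went the other way and rose by 0.63 (adjusted p = 0.0353), from 14.0 ± 2.63 to 19.6 ± 7.69 CPM, with overlapping groups, so the split of shared reads between the pair is uncertain.

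Levels between genes can be compared only per length, in TPM. In DMSO, NBN (31.0 ± 1.43 TPM), RAD51C (30.1 ± 2.46) and RAD50 (29.5 ± 1.16) stood highest and did not differ beyond their spread (SD, n = 3). ATM followed at 20.9 ± 2.34 TPM, level with XRCC3 (20.2 ± 2.52) and CHEK2 (20.1 ± 2.10). At the low end were FANCB (0.95 ± 0.59 TPM) and BRCA2 (0.58 ± 0.11). After CCT068127 the order was another one. FANCI (40.9 ± 5.70 TPM), XRCC3 (35.4 ± 6.99) and FANCA (30.5 ± 6.05) stood highest, with spreads that overlap. RAD50 stood at 8.84 ± 3.61 TPM, in place 22 of 37 after place 3 in DMSO, and FANCF in place 34 after place 9. CLSPN stood in place 17 after place 34. ATRIP was lowest at 0.463 ± 0.556 TPM.

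**Figure D4:**
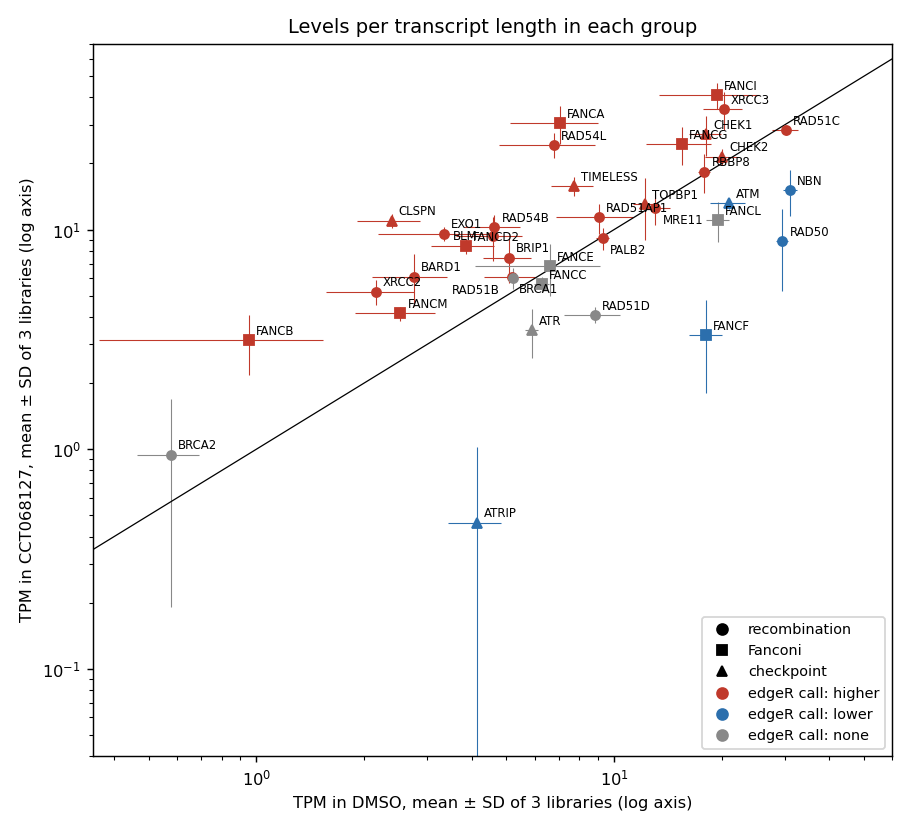
Mean TPM of each gene in DMSO (x axis) and CCT068127 (y axis), log axes, bars ± SD of 3 libraries, with the diagonal of equal level; the lower bar of ATRIP leaves the axis because its SD exceeds its mean. FANCA, RAD54L and CLSPN lie above the diagonal, and RAD50, FANCF and ATRIP below it.

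For some genes counts and TPM changed by different amounts, and with them the estimated length of the expressed transcripts. Dividing a gene's count by its TPM gives the effective length that the quantification assigned to its transcript mix, here set relative to the median gene of the same library. For ATM this relative length was 3.66, 3.64 and 3.42 with DMSO and 0.96, 1.85 and 1.38 with CCT068127. No treated library came near the DMSO values, and the ratio of the groups was 0.377. An effective length at least 2-fold shorter with no overlap between groups was found for 12 of 9108 genes measured (0.132%), ATM among them. On TPM, ATM stood at 19.9, 19.3 and 23.6 in DMSO and at 12.9, 12.6 and 14.1 in CCT068127. That was a fall of 0.62 on the log2(TPM + 1) scale (limma adjusted p = 0.00233) in place of 1.60 by counts. The median of all genes tested on the TPM scale was itself -0.46, and 51.9% of them were called lower. GENCODE release 29 lists 30 transcripts of ATM from 234 to 13147 bases.

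FANCA was also estimated as shorter, at 1.24, 1.39 and 1.46 in DMSO and 0.83, 1.04 and 0.82 in CCT068127, a ratio of 0.656. Shortening of at least 1.5-fold with no overlap was found for 0.736% of genes. BARD1 had a ratio of 0.773 with no overlap, and at least 1.25-fold shorter were 2.35% of genes. In the other direction, RAD51D lengthened from 1.38, 1.35 and 1.22 to 1.71, 1.90 and 1.87, a ratio of 1.39, and RAD51C from 0.287, 0.302 and 0.316 to 0.376, 0.482 and 0.398, a ratio of 1.38. Lengthening of at least 1.25-fold with no overlap was found for 1.66% of genes. RAD51D, which did not pass by counts, had fewer TPM in treated cells, 4.36, 3.70 and 4.17 against 7.76, 8.08 and 10.6 (log2(TPM + 1) change -0.94, limma adjusted p = 0.00114).

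Tested over 9108 genes against a change of 1.2-fold (limma treat), 0 of the 31 genes with enough counts passed for length, at an adjusted p of 0.313 for ATM, 0.655 for RAD51D and 0.827 for FANCA. In the same test 0.274% of all genes passed as shorter and 0.34% as longer. Over the 31 genes the median log2 difference in length was 0.01, against 0.01 over all genes measured. RAD50, FANCI, FANCD2, TIMELESS and CLSPN had ratios from 0.995 to 1.01.

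**Figure D5:**
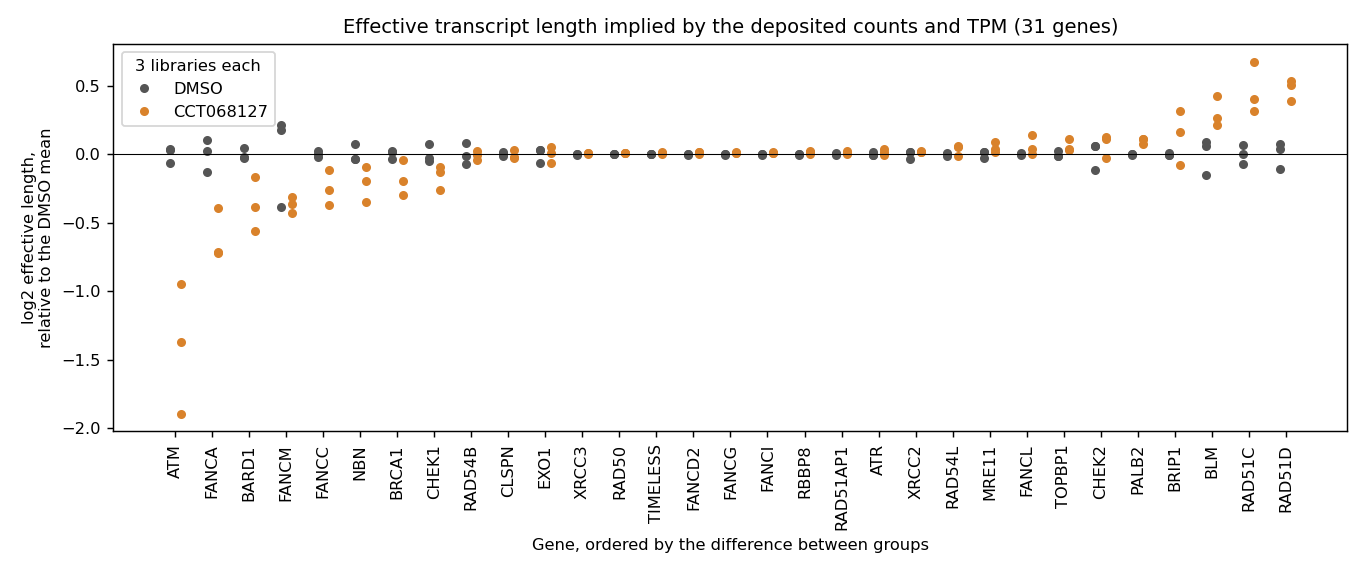
Log2 effective transcript length implied by counts and TPM, relative to the DMSO mean of each gene (y axis), for the 31 genes with at least 20 counts and 1 TPM in each library; points are libraries. ATM stands alone at the left with all 3 CCT068127 libraries below -0.9, and RAD51C and RAD51D lie highest at the right.

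Partners of the same pathways that are not among the 37 genes moved both ways. Of 42 partners tested, 24 (57.1%) rose and 9 fell, with a median of 0.45, beside 31.9% and 32.8% of all genes. On log2(TPM + 1) values 11 rose and 13 fell, beside 17.2% and 51.9% of all genes. Among 15 recombination partners, 8 rose and 3 fell. RPA1, a subunit of the complex that coats single strands, rose from 109 ± 5.25 to 316 ± 16.5 CPM (1.53 ± 0.10, adjusted p = 3.47e-07), and EME1, a nuclease subunit, by 1.49 ± 0.17. MUS81, the catalytic partner of EME1, fell by 0.92 on the log2 scale (adjusted p = 4.77e-05), from 79.6 ± 4.56 to 41.4 ± 4.94 CPM, and SWI5, an accessory factor of the recombinase, fell by 0.90.

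Of 13 Fanconi partners, 8 rose and 4 fell. CENPX, a histone-fold partner of FANCM, rose by 1.57 ± 0.13 (adjusted p = 2.19e-06) and the ubiquitin ligase gene RFWD3 by 1.21 ± 0.12. WDR48, the cofactor of the enzyme that removes ubiquitin from FANCD2, fell by 1.27 on the log2 scale (adjusted p = 8.57e-06), and FAAP100, which pairs with FANCB, by 0.87. Of 14 checkpoint partners, 8 rose and 2 fell. CDC25A, the phosphatase that CHEK1 restrains, rose by 2.48 ± 0.18 (adjusted p = 1.09e-06), from 4.12 ± 0.87 to 24.7 ± 3.5 CPM, and RNF168, a ubiquitin ligase of broken chromatin, by 1.36 ± 0.12. TP53BP1, which shields broken ends from resection, fell by 1.33 on the log2 scale (adjusted p = 2.06e-06), from 127 ± 8.38 to 50.1 ± 3.76 CPM, and RAD17, a clamp loader, fell by 0.58 with overlapping groups.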

How the data were processed

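Estimated counts, given as whole numbers, and TPM values were deposited by the authors, 1 row per gene symbol. The submitters' processing notes list RSEM, Bowtie and the build hg38. Versions, annotation and strandedness are not given in the sources used here. Groups and replicate numbers came from the titles, and each column matched 1 sample. Replicates differed by more than counting noise (chi-square per degree of freedom from 1.95 to 9.23, with the 2 deep libraries thinned), and were treated as separate samples. A 0 allows 0.0073 to 1.53 CPM by library, without the TMM factor and for counting error only.

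Genes were filtered with filterByExpr (minimum count 10, or 1.74 CPM in 3 libraries), scaled by TMM and tested with edgeR 4.0.16 in R 4.3.3 (quasi-likelihood, two-sided, Benjamini-Hochberg over 13597 genes, calls under 0.05). The standard errors, and the 95% intervals built on them with a normal approximation, are approximated from the F statistic. Rose and fell mark calls. TPM values were tested with limma 3.58.1 on log2(TPM + 1), which understates changes of low genes. Alternatives used other scalings and filters, DESeq2 1.42.0, limma-voom, a replicate block, thinning and leaving out each library. Scripts were tested on simulated data.

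The 37 genes and the lists were chosen with earlier results of these data known, so no list was tested. Genes given by library are the 4 with the smallest adjusted p among those that rose and up to 3 that fell in each role, and others, such as BRCA1, BARD1, BLM, BRCA2, FANCB and ATR, were added after their values were seen, as was effective length. For partners the 2 with the smallest adjusted p per direction are named. Coordinates and spans are from RefSeq (GRCh38.p14), and overlaps from GENCODE release 29, which may not be the annotation used by the authors.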

Additional observations from a re-analysis of the deposited data

How the results depend on the processing

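Of the 30 calls among the 37 genes, 30 were kept with DESeq2 size factors, with DESeq2, with the deep DMSO libraries thinned and with the replicate block, which gave 25 higher and 5 lower. The deviations of same-numbered libraries from their group means had correlations of 0.01, 0.005 and 0.009. Counting noise in the shallow libraries can mask a shared deviation, so these values cannot decide whether the numbers pair the samples. Leaving out 1 library at a time gave 22 to 26 higher and 5 to 6 lower. With DMSO replicate 3 as the sole control, an alternative added after the depths were seen, the 30 called genes kept their direction. The number called higher was 16 on log2(TPM + 1) values, 16 with a pseudocount of 0.1 and 15 without a filter, and the number called lower was 8 on each and 8 with library totals. Recombination genes called higher were 9 with library totals and 7 on each TPM setting. Fanconi genes called lower were 2 with library totals, without a low-count filter and on each TPM setting, and from 1 to 2 without 1 library. Checkpoint genes called higher were 3 with library totals, without a filter and on each TPM setting. Over all genes, 2474 were higher and 7472 lower on log2(TPM + 1) values, 2444 and 7299 with a pseudocount of 0.1, and 7365 were lower without a filter. By counts, 3006 of all genes were higher and 6567 lower with library totals. Without the low-count filter, where more genes were tested, 5519 were higher and 6300 lower.

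Direction turned for 4 genes on TPM values, namely PALB2 (-0.029 with a pseudocount of 1, with and without a filter, and -0.0322 with 0.1), RAD51C (-0.0874 and -0.09 likewise), MRE11 (-0.0564 and -0.0609) and FANCC (-0.14 with a pseudocount of 1, with and without a filter, and -0.16 with 0.1). FANCC also turned with library totals (-0.20), without a low-count filter (-0.14) and without CCT068127 replicate 1 (-0.0944, in a range of -0.0944 to 0.2046 over single libraries left out). The cause was not tested. Without a low-count filter 19 of the 25 rises and 5 of the 5 falls were kept, with a median over all genes of -0.49. Precision is limited by CCT068127 replicate 2, with 1966742 counts.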

Other observations

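The DMSO replicates took unequal places for these genes. DMSO replicate 1 was the highest DMSO library for 21 of the 25 genes that rose, against 38% of all genes tested. DMSO replicate 2 was highest for 0 of the 25, against 32.8%. FANCI, at 59.0 CPM in DMSO replicate 1 and 36.0 and 35.8 CPM in the others, shows the pattern. The 25 calls were each kept without DMSO replicate 1. Among the CCT068127 libraries, replicate 2 was highest for 18 of the 37 genes (48.6%), against 38.3% of all genes tested. CCT068127 replicate 1 was lowest for 23 of the 37, against 4919 of all 13597 genes tested. The median coefficient of variation of the 37 genes was 13.1% in DMSO and 13.9% in CCT068127, against 7.41% and 15.8% over all genes tested.

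Across the 37 genes, Spearman's rho between genomic span and log2 fold change was -0.09, and across the 13020 tested genes with a RefSeq span it was -0.11, as descriptions across genes that share the same libraries. Of the 23 genes longer than 51 kb, 15 rose and 3 fell (median 0.64), where 24.5% of all genes that long rose and 38.9% fell (median -0.19). RAD51B, the longest at 863 kb, did not pass, and FANCF, the shortest at 3.29 kb, fell.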
